A study of Homo sapiens with 4 samples.

Results

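The genes examined here encode the splicing regulators that choose exons: 14 SR and SR-like proteins (SRSF1 to SRSF12, TRA2A and TRA2B), 16 heterogeneous nuclear ribonucleoproteins (hnRNPs) and 6 factors of the U2 particle and the spliceosome core (SF3B1, SF3B2, SF3A1, U2AF1, U2AF2 and PRPF8). They were taken by name from the GENCODE 44 annotation and not by a cutoff on any measured value, but with earlier results of these data known. They are 36 of 19970 protein-coding genes on chromosomes 1 to 22 and X. ZNF217, a zinc finger transcription factor, was mapped by CUT&Tag, in which a transposase tethered to the antibody cuts and tags nearby DNA, in untreated MV4-11 and U937 cells, human leukemia lines with monocytic features that carry a KMT2A fusion and a PICALM fusion respectively. Each line had 1 library with the ZNF217 antibody, and the IgG libraries are not analysed here. The deposited lists held 37635 peaks in MV4-11 and 22521 in U937 as hg38 positions without height or read count, so depth is unknown, a width is not a measure of signal, and no difference between the lines has a replicate check.

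SR proteins bind exons through RNA recognition motifs and use arginine- and serine-rich tails to recruit the splicing machinery, so they mostly favour exon inclusion. The hnRNPs coat nascent transcripts, often block the use of nearby splice sites, and also act in RNA export, stability and translation. The U2 factors mark the end of the intron: U2AF2 binds the polypyrimidine tract, U2AF1 reads the AG beside it, and the SF3A and SF3B complexes place the U2 particle on the branch point. SRSF2, SF3B1 and U2AF1 are recurrently mutated in myelodysplastic syndromes and related myeloid disease, which makes their loci of interest in leukemia lines.

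A gene had a promoter peak when a peak overlapped the window of 1 kb on each side of the start of any of its transcripts, and its canonical start is that of the MANE Select or Ensembl canonical transcript. Promoter stretches of well-known members of each class, and of the 1 gene without a promoter peak, are shown as RefSeq gives them for GRCh38.p14, 5′ to 3′ on the strand of the gene, without annotated untranslated bases. Capitals mark matches on either strand to CAGAA (the core of the ZNF217 motif), CCGGAAG (ETS factors), GCATGCG (NRF1 core), TGACGTCA (cAMP response element), the CCAAT box, the TATA box searched as TATAAA, or the GC box searched as GGGCGG.
SRSF3 (chr6:36594112-36594352, plus strand): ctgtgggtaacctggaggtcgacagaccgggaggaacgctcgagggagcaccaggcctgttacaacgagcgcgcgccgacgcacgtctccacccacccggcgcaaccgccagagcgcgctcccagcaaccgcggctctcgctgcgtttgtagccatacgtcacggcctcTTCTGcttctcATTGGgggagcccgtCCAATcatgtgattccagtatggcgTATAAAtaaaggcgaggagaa
HNRNPK (chr9:83980632-83980797, minus strand): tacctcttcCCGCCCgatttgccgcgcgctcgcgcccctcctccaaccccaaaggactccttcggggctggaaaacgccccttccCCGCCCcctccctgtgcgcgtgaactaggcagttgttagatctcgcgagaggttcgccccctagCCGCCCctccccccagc
SF3B1 (chr2:197435080-197435278, minus strand): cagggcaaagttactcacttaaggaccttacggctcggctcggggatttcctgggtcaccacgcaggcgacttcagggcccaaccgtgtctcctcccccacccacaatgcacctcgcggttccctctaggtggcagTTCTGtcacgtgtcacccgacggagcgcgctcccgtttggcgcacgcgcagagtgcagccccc
U2AF1 (chr21:43107571-43107820, minus strand): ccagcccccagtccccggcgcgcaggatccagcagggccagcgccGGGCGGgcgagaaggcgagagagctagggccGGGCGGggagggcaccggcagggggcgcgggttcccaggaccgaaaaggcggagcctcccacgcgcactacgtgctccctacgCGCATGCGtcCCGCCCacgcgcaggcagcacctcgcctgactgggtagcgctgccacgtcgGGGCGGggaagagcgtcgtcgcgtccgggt
SRSF12 (chr6:89118072-89118321, minus strand): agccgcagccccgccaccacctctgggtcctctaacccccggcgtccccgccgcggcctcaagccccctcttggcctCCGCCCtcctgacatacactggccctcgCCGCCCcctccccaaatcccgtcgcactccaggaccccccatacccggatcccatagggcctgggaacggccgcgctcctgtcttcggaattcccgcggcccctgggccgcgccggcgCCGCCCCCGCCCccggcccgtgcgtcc
All printed bases of SRSF3, HNRNPK, SF3B1 and U2AF1 lay inside a ZNF217 peak in both lines, and none of SRSF12 did. The SRSF3 stretch held CCAAT on each strand, a TATAAA and 1 ZNF217 core, that of HNRNPK held 3 GC boxes, that of SF3B1 held 1 match to the ZNF217 core and no other of the searched words, and that of U2AF1 held overlapping NRF1 words and 4 GC boxes. The SRSF12 stretch held 4 GC boxes with a GC content of 75.6%, equal to that of U2AF1. A match is a description of the letters and not a binding site.

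ZNF217 peaks lay at the promoters of nearly all of these splicing factor genes, and the same genes had them in both lines. A promoter peak was present at 35 of 36 genes in MV4-11, where 59% of all protein-coding genes had one, and at 35 of 36 in U937, against 50.5% of all genes. The same 35 genes had it in both lines (97.2%, exact 95% interval 85.5 to 99.9), against 47.4% of all genes. None of the 36 had a promoter peak in MV4-11 only, a state of 11.6% of all genes, and none in U937 only, a state of 3.1%. SRSF12 alone had a promoter peak in neither line, as 37.9% of all genes did. By class, 13 of 14 SR genes, 16 of 16 hnRNP genes and 6 of 6 U2 and core genes had it in both lines. The intervals cover counting error only, and no test was made of whether these genes differ from others with the same base composition or activity.

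The peaks sat on the start itself. The canonical start was inside a peak at 33 genes in MV4-11 (48.9% of all protein-coding genes), at 34 in U937 (38.9%) and at 33 in both (36.2%). The exceptions were all SR genes. SRSF8, a gene copied from a spliced SR transcript, had peaks that began 97 bp downstream of the start in MV4-11 and 16 bp downstream in U937, of 851 and 1126 bp. SRSF11 had a peak of 454 bp that began 63 bp downstream of the start in MV4-11, and a peak of 556 bp over the start in U937. Both SRSF11 peaks ended at the same base (chr1:70221443-70221897 and chr1:70221341-70221897), so the lines differed at its upstream edge. The last was SRSF12, for which no peak was nearest within 100 kb in either line.

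**Figure D1:**
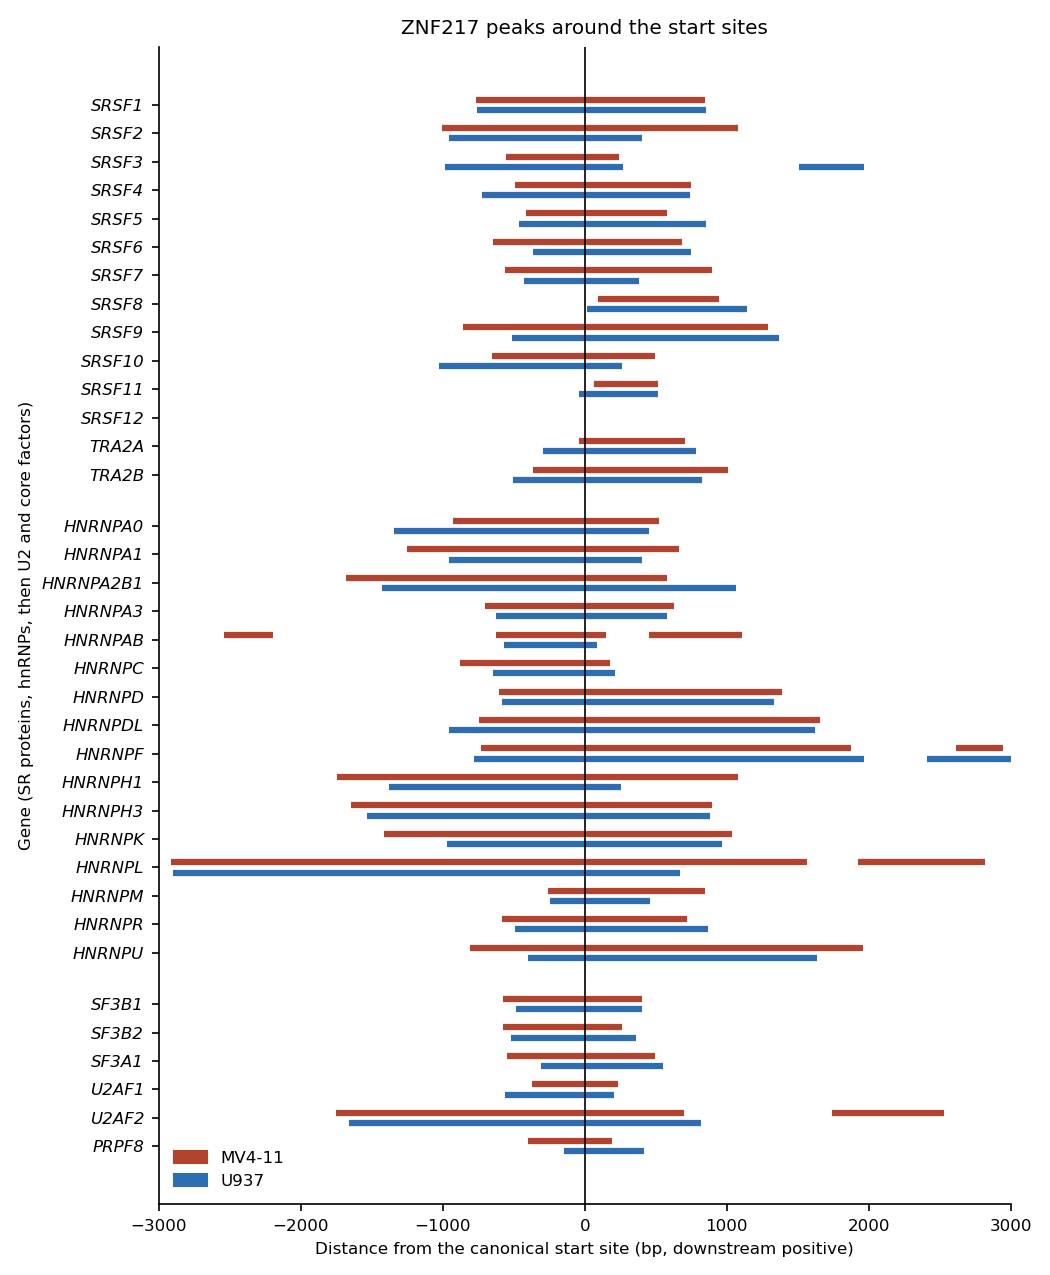
Extent of ZNF217 peaks within 3 kb of the canonical start site (x axis, bp, downstream positive) for each gene (y axis), with MV4-11 above and U937 below in each row. The bars cross the start at 33 genes in MV4-11 and 34 in U937, SRSF8 lies just downstream in both, and SRSF12 has none.

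SRSF12 had the highest GC content of the 36 genes around its start, narrowly above HNRNPR. Over 500 bp on each side of its start the GC content was 72.7%, with 114 CpG dinucleotides and an observed to expected CpG ratio of 0.86. The medians over all 36 genes were 64.6%, 94 CpGs and 0.93, those of the genes with a promoter peak in both lines were 63.5%, 78 and 0.79, and those of all protein-coding genes 61.3%, 66 and 0.72. HNRNPR came close to SRSF12, at 72.6%, with 117 CpGs and a ratio of 0.89, yet it had a promoter peak in each line. The part of base composition in the missing SRSF12 peak was not tested. At the other end, SRSF8 had a GC content of 49.8% and HNRNPA1 of 50.6%, and both had promoter peaks in each line. Whether SRSF12 is transcribed in these lines was not measured here.

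The hnRNP genes had the widest start peaks and the U2 and core genes the narrowest. The median width of the peak over the canonical start was 2124.5 bp at hnRNP genes (n = 16), 1331 bp at SR genes (n = 11) and 909 bp at U2 and core genes (n = 6) in MV4-11, where the median over 9764 protein-coding genes was 1110.5 bp. In U937 the medians were 1856 bp (n = 16), 1303.5 bp (n = 12) and 872 bp (n = 6), and that of 7761 protein-coding genes was 1026 bp. In MV4-11 the quartiles were 1326 and 2562.5 bp for the hnRNP genes, 1071 and 1535 bp for the SR genes and 666 and 1026.75 bp for the U2 and core genes. In U937 they were 1320.25 and 2438 bp, 1105.5 and 1382.25 bp, and 793.75 and 885.75 bp. The ranges between the quartiles of the hnRNP and SR genes thus overlapped in each line, and those of the SR and the U2 and core genes did not. Start peaks of at least 2 kb were found at 11 of the 33 members with a start peak in MV4-11 and at 7 of 34 in U937. Among all protein-coding genes with a start peak they were found at 1398 of 9764 and 576 of 7761. Over all genes, with or without a start peak, the shares were 30.6% of the members against 7% in MV4-11, and 19.4% against 2.88% in U937. Of the 11 and 7 members, 8 and 6 were hnRNP genes. The others were U2AF2 in both lines and SRSF9 and SRSF2 in MV4-11. Other hnRNPs examined beside the members also had median start peaks above those of all protein-coding genes, of 1880 bp in MV4-11 (n = 12) and 1445 bp in U937 (n = 11). The class order is a description of genes in 1 library per line and was not tested.

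**Figure D2:**
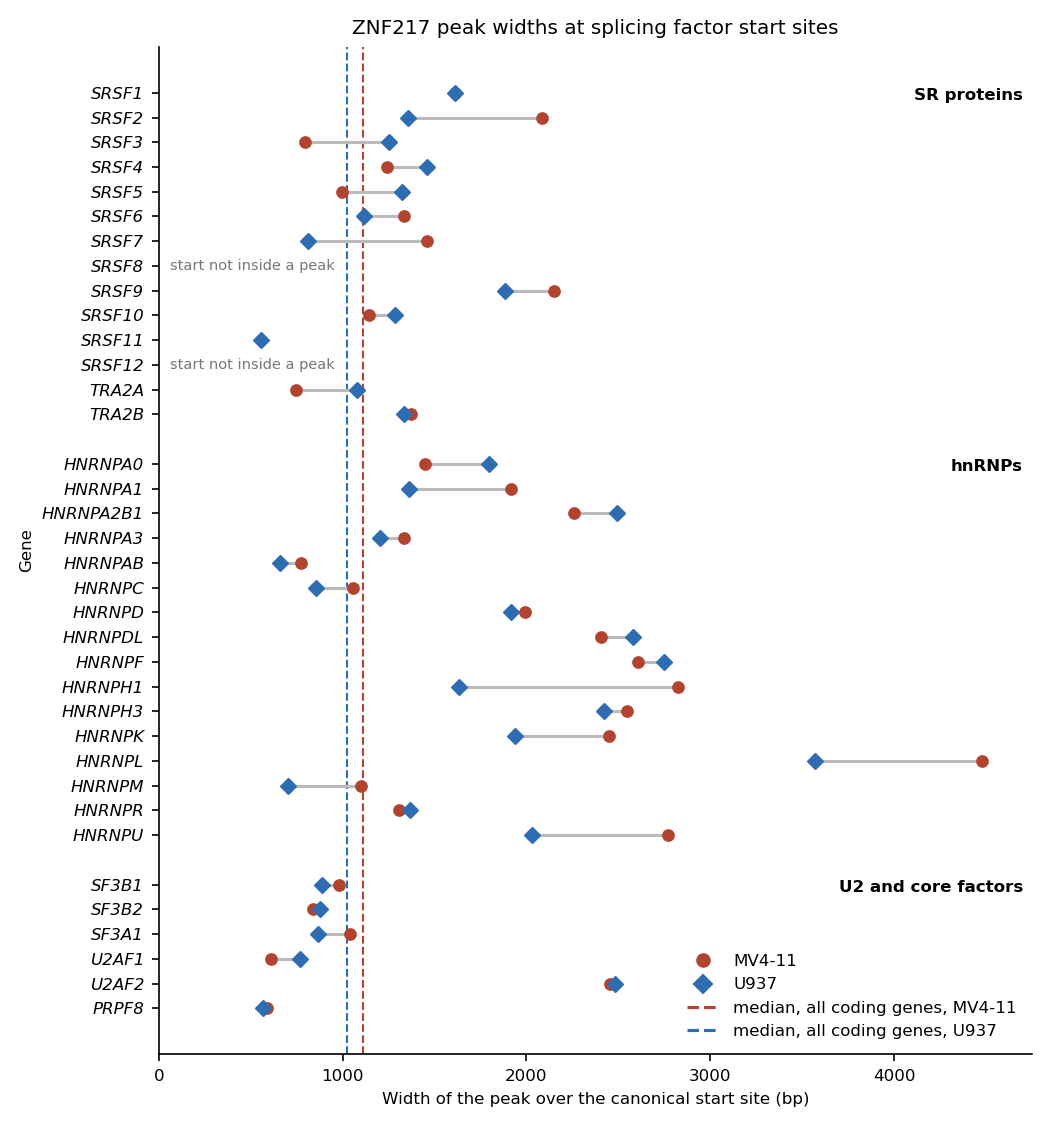
Width in bp of the ZNF217 peak over the canonical start site (x axis) of each gene (y axis), as circles for MV4-11 and diamonds for U937, with a grey line joining the lines and dashed lines at the medians of all protein-coding genes (1110.5 and 1026 bp). HNRNPL is the widest in both lines (4478 and 3571 bp), and 5 of the 6 U2 and core genes lie below the median of each line.

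HNRNPL, which binds CA-rich RNA, had the widest peak of the set, of 4478 bp in MV4-11 (chr19:38848419-38852897) against 3571 bp in U937 (chr19:38849316-38852887). These widths were at the 99.0th and 99.4th percentile of start peaks of all protein-coding genes. The upstream edges, 2911 and 2901 bp from the start, nearly coincided, and the downstream edges lay at 1567 bp in MV4-11 against 670 bp in U937. HNRNPH1 and HNRNPF, which bind G-rich RNA, followed different patterns. HNRNPH1 had 2824 bp in MV4-11 against 1635 bp in U937, with downstream edges at 1081 and 258 bp. HNRNPF had 2606 and 2749 bp, and its peaks overlapped over 94.8% of their union.

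Further hnRNP genes also had wide start peaks. HNRNPU, the scaffold attachment factor that binds RNA and chromatin, had 2770 bp in MV4-11 against 2031 bp in U937. HNRNPH3, a relative of HNRNPH1, had 2548 and 2419 bp, with an overlap of 94.9% of the union. HNRNPDL, a relative of the AU-rich element binding protein HNRNPD, had 2405 and 2580 bp. HNRNPA2B1, which reads purine-rich motifs in exons and in transported RNAs, had 2256 and 2495 bp. HNRNPK, which binds C-rich RNA, had 2449 and 1937 bp. All of these were above the medians of all protein-coding genes in both lines.

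Some hnRNP genes were narrow. HNRNPAB had 773 bp in MV4-11 against 660 bp in U937, the narrowest of its class in both lines. HNRNPC, which binds uridine tracts, had 1054 and 855 bp, and HNRNPM had 1101 and 705 bp. These 3 were below the median of all protein-coding genes in each line, HNRNPM only just in MV4-11. The remaining hnRNP genes lay between 1305 and 1993 bp in MV4-11 and between 1201 and 1918 bp in U937: the splicing repressor HNRNPA1, its relatives HNRNPA0 and HNRNPA3, HNRNPD, and HNRNPR.

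Among the SR genes, SRSF9 had the widest start peak, of 2151 bp in MV4-11 against 1882 bp in U937. SRSF2, which binds exonic enhancers and carries the recurrent disease mutations, had 2083 bp in MV4-11 (chr17:76736255-76738338) against 1356 bp in U937 (chr17:76736928-76738284). The upstream edges lay 1007 and 953 bp from its start and the downstream edges 1076 and 403 bp, so that the MV4-11 peak reached further into the gene. SRSF1, the founding SR protein, had 1613 bp in both lines, and the peaks shared 99.0% of their union, the highest value of the set. SRSF3, a small SR protein that also links splicing to RNA export, showed the opposite difference from SRSF2. Its peak had 796 bp in MV4-11 against 1251 bp in U937, with upstream edges at 553 and 983 bp and downstream edges at 243 and 268 bp. SRSF7, an SR protein with a zinc knuckle, had 1457 and 809 bp.

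The other SR genes varied less. SRSF4, SRSF5, SRSF6, SRSF10 and TRA2B had start peaks of 997 to 1372 bp in MV4-11 and 1114 to 1461 bp in U937. TRA2A and TRA2B, SR-like proteins that bind GAA-rich exons, differed from each other, with 748 and 1372 bp in MV4-11 and 1080 and 1335 bp in U937. The TRA2A peak reached only 40 bp upstream of the start in MV4-11 and 294 bp in U937. Of SR start peaks, 9 of 11 in MV4-11 and 8 of 12 in U937 extended further downstream than upstream, against 6 of 16 hnRNP peaks in each line, and 0 and 2 of the 6 peaks at U2 and core genes. Over all protein-coding genes the share was 49.2% in MV4-11 and 51.0% in U937, and the difference between the classes was not tested.

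Of the 6 U2 and core genes, 5 had start peaks narrower than the median of all protein-coding genes in each line, and U2AF2 did not. This did not extend to the 15 other U2 factors examined beside the members. Their median start peak was 1170 bp in MV4-11 (n = 15) and 1290.5 bp in U937 (n = 14), above the medians of all protein-coding genes. At other proteins of the spliceosomal particles and core it was 1026 bp in MV4-11 (n = 21) and 995.5 bp in U937 (n = 22), below those medians. SF3B1, the branch point protein, had 981 bp in MV4-11 (chr2:197434625-197435606) against 888 bp in U937 (chr2:197434625-197435513), with the same downstream edge at 403 bp. SF3B2 had 837 and 879 bp and SF3A1 had 1042 and 865 bp. PRPF8, the protein that holds the catalytic RNAs of the spliceosome, had 589 and 565 bp, the former at the 12.0th percentile of start peaks, and its peaks overlapped over 41.9% of their union, the lowest of the set. The widest promoter peak of PRPF8 in MV4-11, of 2244 bp, was not at its start but over the start of RILP, beyond the end of PRPF8. U2AF2 had 2456 bp in MV4-11 against 2479 bp in U937, at the 92.0th and 96.7th percentile.

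U2AF1 had start peaks of 609 bp in MV4-11 against 770 bp in U937, and its widths are uncertain. The reference holds a second copy of U2AF1 on chromosome 21 (chr21:6484623-6499248), which GENCODE marks as an artifactual duplication. Over the 2001 bp around the start it differed from U2AF1 at 5 bases (99.8% identity), so reads could be placed at either copy. MV4-11 had a peak of 403 bp at the copy (chr21:6499338-6499741), upstream of its start, and U937 had none. How reads with more than 1 placement were treated is not given in the sources used here. The part of this copy in the U2AF1 widths was not tested.

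Widths were ordered alike in the 2 lines. Over the 33 genes with the start inside a peak in both, Spearman's rho between the widths was 0.86, and over 7220 protein-coding genes it was 0.57. The points share a library per line and a genome sequence, and the value is a description across genes. The MV4-11 peak was the wider at 19 genes, the U937 peak at 13 and neither at 1, so 57.6% were wider in MV4-11, against 63.0% of all protein-coding genes. The peaks of the lines overlapped over a median of 75.5% of their union. The upstream edges differed by a median of 190.0 bp and the downstream edges by 78.0 bp. Widths followed the number of CpGs weakly, with rho of 0.19 in MV4-11 and 0.14 in U937 over the same 33 genes.

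Several start peaks also covered the start of a neighbour on the other strand. Such a coding neighbour lay within 1 kb of the start at 9 of the 36 genes (25%), against 13.9% of all protein-coding genes. The pairs were SRSF2 with MFSD11 at 56 bp, SRSF9 with DYNLL1 at 102 bp, SF3A1 with CCDC157 at 107 bp, HNRNPDL with ENOPH1 at 128 bp, SRSF7 with GEMIN6 at 173 bp, HNRNPA2B1 with CBX3 at 416 bp, HNRNPK with RMI1 at 583 bp, HNRNPA1 with CBX5 at 593 bp, all upstream, and HNRNPH3 with PBLD at 842 bp downstream. GEMIN6 belongs to the complex that assembles spliceosomal particles, and CBX3 and CBX5 encode heterochromatin proteins. The median start peak of the 9 genes was 2151 bp in MV4-11 against 1882 bp in U937. That of the others was 1272 bp (n = 24) and 1285 bp (n = 25). Over all protein-coding genes the medians went the same way. In MV4-11 they were 1269 bp with such a neighbour and 1067 bp without, and in U937 1125 and 991.5 bp. Among genes without such a neighbour the medians of the classes lay closer together in MV4-11, with 1448 bp at hnRNP genes (n = 11) and 1192 bp at SR genes (n = 8), than over all genes of these classes (2124.5 and 1331 bp). In U937 they were 1635 bp (n = 11) and 1285 bp (n = 9), beside 1856 and 1303.5 bp over all genes of the classes. The part of the neighbours in these widths was not tested.

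The promoter letters of the members were compared with those of other genes in RefSeq windows from 250 bases before to 50 after the start, which matched 33 of the 36 genes and 15315 protein-coding genes. CAGAA, on either strand, was in 10 of the 33 windows (30.3%), in 48.5% of all windows and in 43.1% of those of genes with a promoter peak in both lines. The GC box was in 20 (60.6%), against 59.2% of all and 71.5% of those with a promoter peak in both lines. CCAAT was in 13 windows (39.4%), near the 36.6% of all and 37.6% of those with a promoter peak in both lines. By class it was in 10 of 15 hnRNP windows (66.7%), 2 of 12 SR windows and 1 of 6 U2 and core windows. TATAAA was in 5 windows (15.2%), against 9.64% of all and 4.85% of those with a promoter peak in both lines. The 5 were those of SRSF3, SRSF11, HNRNPAB, HNRNPC and HNRNPD. The ETS word was in 3 of 6 U2 and core windows (SF3B2, SF3A1 and U2AF2) and in 7 windows in all (21.2%), against 14.4% of all windows and 22.1% of those with a promoter peak in both lines. The NRF1 core was in the windows of SRSF10 and U2AF1 (5.13% of all windows and 7.42% of those with a promoter peak in both lines), and TGACGTCA in none (2.64% and 3.59%). Matches may overlap, and these shares were not tested.

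Every start peak had a counterpart in the other line. All 33 start peaks of MV4-11 and all 34 of U937 met the sharing rule, an overlap of 1 bp or more. Most start peaks of other genes had a counterpart too. Of all protein-coding genes, 9764 had the start inside a peak in MV4-11 and 7761 in U937, and 7220 had it in both. The share of all start peaks that met the sharing rule was not calculated. Of all promoter peaks of the members, 42 of 53 in MV4-11 were shared (79.2%, Wilson 95% interval 66.5 to 88.0), against 62.6% of promoter peaks of all genes. In U937 it was 41 of 42 (97.6%, 87.7 to 99.6), against 87.0%. The exception in U937 was a 427 bp peak 11.3 kb downstream of the HNRNPL start (chr19:38838472-38838899). Promoter peaks away from the canonical start were shared in 9 of 20 cases in MV4-11 and 7 of 8 in U937. The share of such peaks over all genes was not calculated. MV4-11 had the longer list, so that more of its peaks could lack a partner.

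Some members had further promoter peaks. HNRNPF had peaks over an internal start, of 1287 and 1858 bp at 12.3 and 12.5 kb from its canonical start in MV4-11 and U937 respectively. A further pair, of 1382 and 797 bp at 10.4 and 10.7 kb, overlapped the window around that start without covering it. HNRNPH1 had one of 931 and 1070 bp at its distal upstream start. HNRNPM had peaks of 1679 and 1651 bp near the end of the gene, wider than those at its canonical start. The second promoter peaks of SRSF9 (1009 and 818 bp) and SRSF11 (772 and 753 bp) also covered the starts of DYNLL1 and LRRC40, so that they cannot be assigned to the SR gene.

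Gene body peaks outside the promoter windows did not set the members apart from the background in either line. They were present at 7 of the 36 genes in MV4-11, against 29.5% of all protein-coding genes, and at 10 in U937, against 19.1%. The peaks numbered 16 and 13, of which 5 and 4 were shared. No SR gene had one in MV4-11, and in U937 SRSF3 had an intronic peak of 454 bp and SRSF10 one of 378 bp. Of the 16 in MV4-11, 7 were at U2AF2. The start peaks of U2AF2 were of nearly the same width in the lines, while its body held 7 peaks in MV4-11, from 344 to 2929 bp, and 2 in U937, with widths of 382 and 392 bp. The largest, of 2929 bp (chr19:55667995-55670924), had no counterpart in U937 and covered a start of the noncoding gene ENSG00000267096. A peak of 2202 bp at the end of the gene covered the start of EPN1 and had its midpoint outside U2AF2. It overlapped a U937 peak by 963 bp, which did not reach U2AF2 and so is not among the 2. Both U2AF2 body peaks of U937 overlapped an MV4-11 peak.

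The other gene body peaks were spread over hnRNP and core genes. HNRNPF had 336 and 331 bp in MV4-11, and 892 and 1461 bp in U937, of which the last overlapped the 331 bp peak of MV4-11. HNRNPA2B1 had intronic peaks of 317 and 564 bp in MV4-11 and a separate one of 905 bp in U937. HNRNPAB had 1008 and 678 bp in MV4-11 against 574 bp in U937, which overlapped the second. HNRNPL had 1 of 378 bp, HNRNPM 1 of 548 bp and SF3B2 1 of 408 bp, in MV4-11 alone. The 317 bp peak in HNRNPA2B1 also lay within 1 kb of a start of NFE2L3. Likewise the 408 bp peak in SF3B2 lay within 1 kb of a start of PACS1. Neither was nearest to the member. HNRNPC had 2, of 426 and 589 bp, HNRNPU 1 of 360 bp, SF3A1 1 of 377 bp and PRPF8 1 of 752 bp, in U937 alone. Most had their midpoint in an intron. With 1 library per line, a peak found in 1 line cannot be told apart from one that missed the calling threshold in the other.

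**Figure D3:**
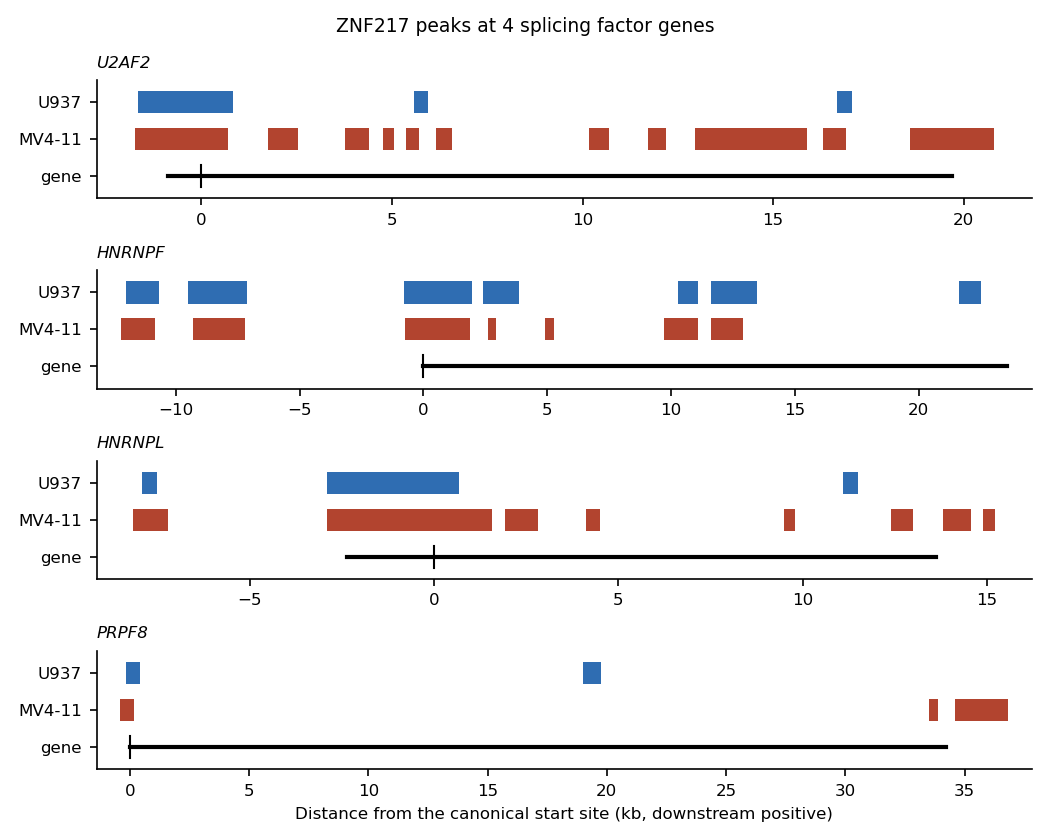
ZNF217 peaks (bars, MV4-11 red and U937 blue) at U2AF2, HNRNPF, HNRNPL and PRPF8 against distance from the canonical start site (x axis, kb, downstream positive), with the gene as a black line and the start as a tick. U2AF2 has 7 body peaks outside promoter windows in MV4-11 and 2 in U937, while HNRNPF has paired peaks in both lines. The U2AF2 body peak at the end of the gene in MV4-11 covers the start of EPN1 and overlaps a U937 peak that is not drawn.

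Peaks were also assigned to the protein-coding gene with the nearest start within 100 kb, and starts of noncoding genes were not considered. The members were nearest to 92 peaks in MV4-11, of which 50 were shared, and to 62 in U937, of which 49 were shared. The shared part of all peaks assigned in this way was not calculated, so these counts have no background. In each line 17 of the 36 genes (47.2%) had exactly 1 such peak, against 37.2% of genes with a promoter peak in MV4-11 and 51.4% in U937. The member share also counts SRSF12, which has no promoter peak, so the shares are not over like sets. SRSF2 and SRSF6 had no such peak in U937, where their start peaks were nearest to a start of another coding gene. HNRNPL and U2AF2 had 8 each in MV4-11 and 3 and 2 in U937. HNRNPF had 7 in each line, of which 6 were shared in each. A pair of its shared regions lay upstream: 8.26 kb from the start in MV4-11 (2133 bp) and 8.33 kb in U937 (2381 bp), and 11.5 and 11.3 kb (1365 and 1308 bp). In both lines the nearer region covered a start of the noncoding gene SNORD3J and the farther region one of LINC02916. These regions therefore cannot be assigned to HNRNPF. HNRNPAB had 7 and 3, SRSF5 6 and 4, and SRSF3 5 and 4.

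Distal peaks outside the genes were shared in 8 of 32 cases for MV4-11 and 8 of 11 for U937. MV4-11 had the longer list, and the share over all distal peaks was not calculated. These counts therefore do not set the members apart from other genes. SRSF3 had a shared region 29.2 and 29.6 kb downstream of its start, of 1273 bp in MV4-11 (chr6:36622882-36624155) against 650 bp in U937 (chr6:36623595-36624245). SRSF5 had shared regions 63.6 kb upstream in each line (378 and 388 bp), and another pair between those and the gene (583 bp, 50.4 kb upstream, in MV4-11 and 623 bp in U937). HNRNPA1 had one beyond its end, of 1503 and 1143 bp, HNRNPAB one of 1460 and 1015 bp, and HNRNPL one 7.69 kb upstream, of 942 and 393 bp. Which gene a distal peak acts on was not measured.

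The processed copies of the members had peaks at a share near that of all processed pseudogenes. Of 134 pseudogenes named after a member, 2 overlapped a peak in MV4-11 (1.49%) and 1 in U937 (0.746%), against 1.82% and 1.32% of 10514 processed pseudogenes. They were HNRNPA1P30 in both lines and HNRNPMP2 in MV4-11. Reads from near-identical copies could be placed at either.

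Other splicing genes were set beside the members. Both lines had a promoter peak at all 15 other U2 factors, among them ZRSR2, another gene mutated in myeloid disease. Of 24 proteins of the spliceosomal particles and core, 23 did, and SNRPF had one in U937 only. Of 15 other hnRNPs, 11 did, HNRNPLL had one in MV4-11 only, and HNRNPA1L2, HNRNPCL1 and RALYL had none. Of 18 SR kinases and related proteins, 15 did. The kinases SRPK1, SRPK2 and SRPK3, which phosphorylate SR proteins, had one in MV4-11 only, of 1297, 812 and 871 bp. That was the state of 11.6% of all protein-coding genes, and MV4-11 had the longer list. The CLK kinases, which act on the same tails in the nucleus, had one in both lines. They were named after their values were seen, and the contrast was not tested.

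Splicing factors known for expression in particular tissues, such as neurons, epithelium and muscle, differed from this pattern in their counts. Of 20 such genes, 5 had a promoter peak in both lines (RBFOX2, CELF5, CELF6, PTBP2 and MBNL3), 3 in MV4-11 only (ESRP2, NOVA2 and ELAVL3) and 12 in neither. Their share in both lines was 25% (exact 95% interval 8.66 to 49.1), that of the 36 members 97.2% (85.5 to 99.9). Both lists were chosen with earlier results of these data known, and the difference was not tested. The widest of these peaks, at PTBP2, had 1174 bp in MV4-11 against 1148 bp in U937. The median number of CpGs around the start was 87 in this list and 94 in the members, the median GC content was 65.9% and 64.6%, and the median observed to expected CpG ratio was 0.78 and 0.93, against 0.72 over all protein-coding genes.

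**Figure D4:**
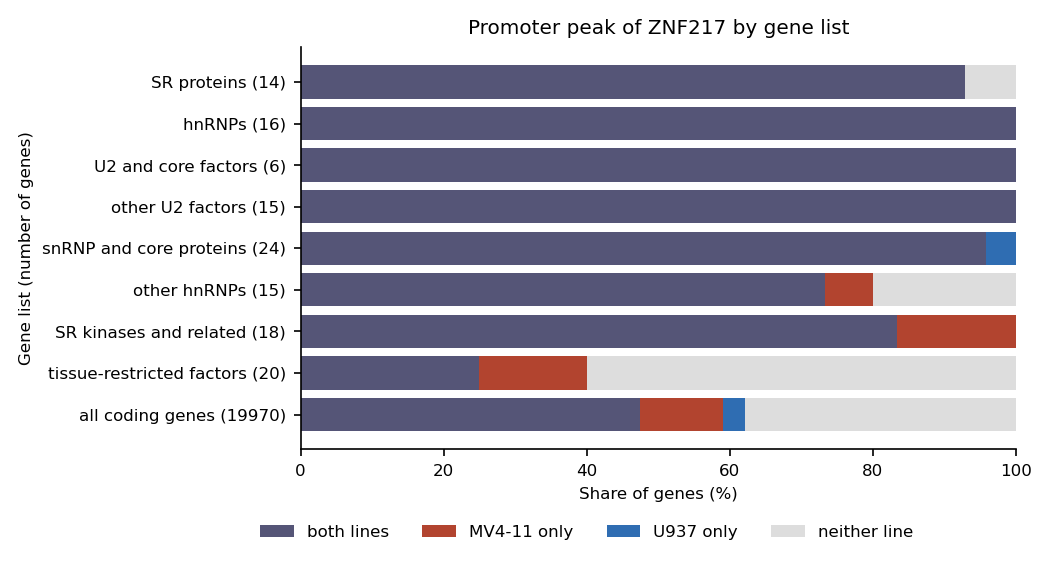
Share of genes in % (x axis) with a ZNF217 promoter peak in both lines, 1 line or neither, for each list (y axis, with the number of genes). The bars of the 3 member classes reach 92.9, 100 and 100% in both lines, the tissue-restricted factors 25%, and all protein-coding genes 47.4%.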

How the data were processed

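ZNF217 CUT&Tag libraries of untreated MV4-11 and U937 cells were used, 1 per line. Per the submitters' processing notes, Bowtie2 2.4.4 and MACS3 3.0 were used on hg38. Whether IgG served as control, and whether duplicates or blacklisted regions were removed, is not given in the sources used here. The deposited values are positions of called peaks (chromosome, first and last base) and belong to no signal, score or count unit, so the unit is given as other. Whether the start counts from 0 or 1 is not stated, which leaves 1 bp of uncertainty, and depth is unknown.

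Positions were compared with GENCODE 44 on GRCh38. Every sequence name matched the reference, all peaks fell within their sequence, and peaks of a list did not overlap. Genes on chromosomes 1 to 22 and X were used. Promoter windows were 1 kb on each side of any transcript start, sharing required 1 bp of overlap, and gene body peaks overlapped the gene but no promoter window. Shares of genes have exact and shares of peaks Wilson 95% intervals, which cover counting error only. No p-value was calculated. The overlap code was checked on simulated peaks. The tools were pysam 0.24.0, SciPy 1.17.1, pandas 2.3.3, NumPy 2.4.6 and Matplotlib 3.10.9 under Python 3.11.15.

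The members and lists were chosen with earlier results of these data known. All members were reported by class, with those lacking a promoter peak, those with gene body peaks and the 5 widest and 5 narrowest described one by one. Of the other splicing lists, genes without a promoter peak were named for the spliceosome lists and occupied ones for the tissue-restricted list. ZRSR2 and the CLK genes were named beyond this rule, after their values were seen. Promoter letters of SRSF2 and HNRNPA2B1 are not shown. Alternatives were windows of 500 bp and 3 kb, 1 start per gene, peaks of at least 400 bp, lists of equal length, merging within 500 bp, other overlap rules and a nearest-start limit of 50 kb.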

Additional observations from a re-analysis of the deposited data

How the results depend on the processing

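The promoter counts of 35 genes in each line and in both, and those of the 3 classes, did not change under any alternative run. Sharing and the counts outside promoters moved. The share of member promoter peaks found in the other line was 79.2% in MV4-11 and 97.6% in U937; it was 97.2% and 100% with 1 start per gene, 100% in U937 with a window of 500 bp, and in MV4-11 89.1% with lists of equal length and 89.6% with peaks merged within 500 bp. Gene body peaks numbered 16 in MV4-11 and 13 in U937. With a window of 3 kb there were 10 and 8, with 1 start per gene 31 and 20, with peaks of at least 400 bp 8 in U937, and with lists of equal length 8 in MV4-11. The peaks nearest to a member in MV4-11 fell from 92 to 59 with lists of equal length. The 3 kb window and the shorter lists count fewer peaks by construction, and the other causes were not tested. With a window of 3 kb the shared shares were lower, at 70.3% in MV4-11 and 90% in U937. In all, 74 of 86 alternative values stayed within their limits (1.5 times for a count, the 95% interval for a share or a median width) and 12 moved. No paired analysis was possible because each line had 1 library. The lists give neither depth nor height, so a missing peak is not an absence of ZNF217.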
